A study of Mus musculus with 54 samples.

Results

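The cytosolic ribosomal protein genes encode the proteins of the small (40S) and large (60S) subunits of the ribosome that translates nuclear mRNAs. Members were taken by symbol, as genes named Rps or Rpl with a number and an optional a, l or x, together with Rpsa, Rplp0, Rplp1 and Rplp2, and had to have reads in at least 27 of 54 libraries. Of 23481 genes in the table, 80 had such a symbol and 77 were members, 31 of the small subunit and 46 of the large subunit. Rpl10l, Rpl26 and Rpl39l had the symbol and fell below that limit. The symbols leave out Rps3a1, Rpl36al, Rpl22l1 and Rpl7l1, and Fau, which is made as a fusion with a ubiquitin-like protein; some of these are given separately where they bear on a result.

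RNA-seq was measured in the 4T1 mouse mammary carcinoma line, which was split into 23 clones by sorting single cells, and in 4 specimens from mice. The specimens were 2 lung metastases, Lung_1 and Lung_2, and 2 orthotopic tumors, Tumor_1 and Tumor_2. Clones E and T are labelled intravasating, for entry of their cells into blood vessels when the clones were followed as a pool, and the other 21 are labelled non-intravasating. Each clone and specimen has 2 libraries, A and B. Each clonal line is a single isolate, all clones were grown in the same serum-supplemented medium, and whether libraries A and B stand for separate cultures is not stated, so p-values over libraries measure only the spread between them, possibly a technical one. It is also not stated how many mice gave the specimens, which clones they held or whether tumor cells were separated from host cells.

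Ribosomal protein genes are among the most highly expressed genes of growing cells, and their products are needed in equal numbers because a ribosome holds 1 copy of nearly every protein. Their mRNAs begin with a tract of pyrimidines, the 5′ TOP motif, through which mTOR signalling controls their translation together. Some of the proteins also have roles outside the ribosome, such as the binding of MDM2 by Rpl5 and Rpl11, which stabilises p53.

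RefSeq start regions (GRCm38.p6, for which the submitters' notes give the name mm10) were matched by symbol for 57 of 77 members. A run of at least 8 pyrimidines lay within 50 bases of the annotated start in 47 of them, 82.5%, against 31.5% of 9908 other tested genes. The ETS core CCGGAAG, on either strand of the 300 bases around the start, was found in 38.6% of members against 17.7% of other genes. TATAAA was found in 8.77% of members against 7.34%, and CACGTG in 8.77% against 10.1%. Members whose levels set single clones apart are shown by the 30 bases that hold their longest pyrimidine run within 50 bases of the annotated start, read 5′ to 3′, with the run in capitals.
Rps6, chr4:86857349-86857378, minus strand: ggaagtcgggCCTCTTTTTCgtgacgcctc
Rpl22, chr4:152325679-152325708, plus strand: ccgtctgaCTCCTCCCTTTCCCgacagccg
Rpl39, chrX:37085173-37085202, minus strand: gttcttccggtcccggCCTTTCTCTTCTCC
Rpl36a, chrX:134585672-134585701, plus strand: cggctctagCCTCTCTCTTTCCgagctgct
Rpl14, chr9:120571501-120571530, plus strand: agggcgggCCCTCTCTCTTCTCgctgagcg
Rps12, chr10:23787182-23787211, minus strand: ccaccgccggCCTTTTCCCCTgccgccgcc
The 6 runs are 10 to 14 bases long. The run of Rpl22 begins 39 bases before the annotated start, and those of Rpl39 and Rpl36a begin 37 and 28 bases after it, so these 3 windows do not include the start itself. A match of letters is a description of the window and not evidence of a start site or a bound factor.

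Recovered reads per library were 16327693 to 20368740 in the lung metastases, 12183058 to 17369960 in the tumors, 15581390 to 31609870 in the intravasating clones and 8849257 to 27304778 in the other clones. With the ribosomal RNA precursor Rn45s left out, members took 1.96% to 2.92% of reads in the lung metastases, 1.45% to 3.43% in the tumors and 1.90% to 3.75% in the 46 clone libraries, where the median was 2.56%.

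Within the clones the members spanned a wide range of levels. Per kilobase of transcript, the normalized count was highest for Rpl41 (42741 as the median over 23 clones), which encodes the smallest protein of the large subunit, followed by Rplp1 (21818), an acidic stalk protein. Rpl4 (19665) was also among the 4 highest. The lowest tested members on the same scale were Rpl30 (49.1), Rps27 (92.2), Rpl34 (152) and Rpl29 (503). By coding length, Rpl41, Rpl39 and Rplp1 were among the highest. Rpl3l, a paralog of Rpl3 known from striated muscle, was near 0, with 0 to 4.32 normalized counts per clone and 0 to 4.67 in the specimen libraries, and too low to test, which left 76 tested members. Many members have near-identical copies in the genome. Of the 76-base stretches of Rps27 98.5% also occur in another annotated gene, as do 64.7% of those of Rpl30 and 41.0% of those of Rpl34. The same holds for 56.5% of the stretches of Rpl26, which fell below the limit for members with 5 reads in all libraries. For Rpl10l and Rpl39l, also below that limit, it was 0.11% and 0%. Of the 77 members, 12 share over 80% of such stretches, and their median level per kilobase was 4039, against 8973 for the 11 that share over 0% and up to 20%. It was 4811 for the 51 that share over 20% and up to 80%, and 6745 for the 3 that share 0%, which include Rpl3l. Levels of these genes are therefore uncertain where counting could have divided reads among copies, and the effect of the sharing was not tested.

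The mean level of the 77 members differed between clones. On the deposited log2 scale it was 12.01 in clone T, 11.94 in clones V and U, 11.54 in clone E, 11.43 in clone O and 11.41 in clone G, with an SD of 0.17 between the 23 clone means and a median SD of 0.11 between the 2 libraries of a clone. Neighbouring clones in this order lay closer together than that spread between libraries, as with 11.940 in clone U and 11.944 in clone V. The order of neighbours is therefore uncertain. Library A was above library B in 19 of 23 clones.

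**Figure D1:**
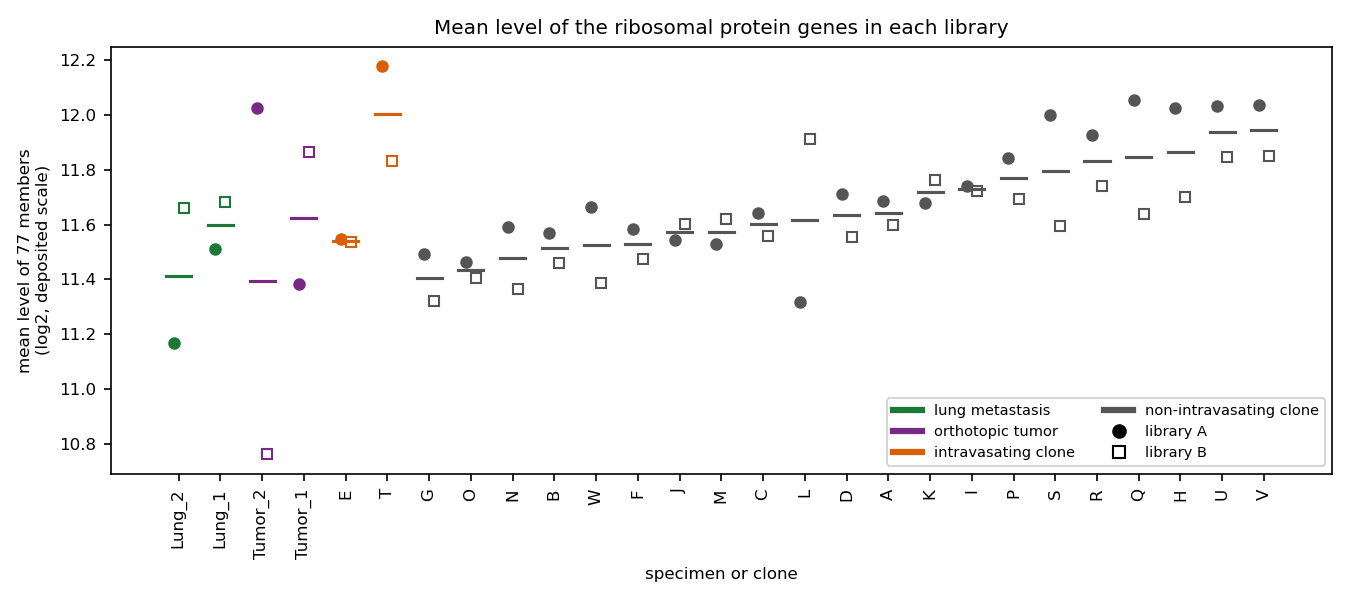
Mean log2 level of the 77 members in each library (filled circles library A, open squares library B) and the mean of both (bars) in lung metastases, tumors, intravasating clones and the other clones, ordered by mean within each class. The 2 libraries of Tumor_2 sit at 12.03 and 10.76, farther apart than those of any clone.

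The 2 libraries of a clone or specimen shifted the members together. In Tumor_2 all 76 tested members were higher in library A, with a median difference of 1.33, and in Tumor_1 and in clone L all 76 were lower in library A, with medians of -0.49 and -0.59. The shift moved with that of other genes according to transcript length. In Tumor_2, 766 other genes with transcripts under 1 kb had a median A minus B of 0.56 and 3467 with transcripts of at least 4 kb one of -0.20. Over 27 clones and specimens, the members' median A minus B and the short-minus-long difference of other genes correlated with r = 0.98, and r was 0.96 over 22 clones without clone L. These points share library preparation and depth, and 58 of the members have transcripts under 1 kb. How far this moves the comparisons below was tested only where an alternative with the length difference as a covariate is given.

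**Figure D2:**
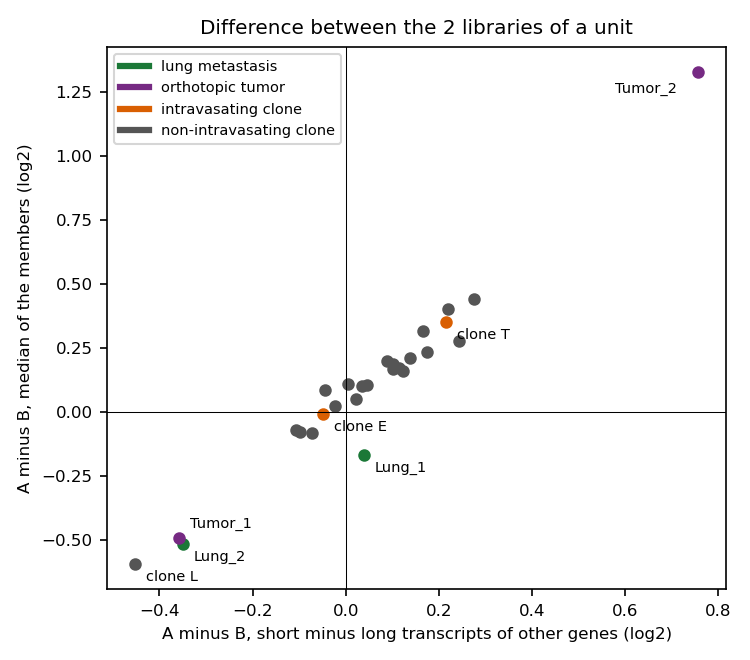
Median A minus B of the members (vertical, log2) against the difference of A minus B between short and long transcripts of other genes (horizontal, log2) in 4 specimens and 23 clones. Tumor_2 lies at the upper right and clone L, Tumor_1 and Lung_2 at the lower left.

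Among the 23 clones, the level of 73 of 76 members differed by more than between libraries (limma moderated F-test, adjusted p under 0.05), namely 30 of 31 small-subunit and 43 of 45 large-subunit members. Of all 13637 genes tested, 95.1% were called by the same test, so the share of the members, 96.1%, was near that of all genes. Rps29, Rpl37 and Rpl38 were the members not called, with adjusted p of 0.057, 0.085 and 0.054. The median SD of a member between clones was 0.27, against 0.29 for all genes, and the median SD between libraries was 0.20, against 0.14.

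The small-subunit member with the widest range of clone means was Rpsa (chr9:120127689-120132369, plus strand), which encodes the 40S protein that is also known as the laminin receptor, and its range was 1.87 on the log2 scale. It had 4807 and 4242 normalized counts in the libraries of clone G, its lowest, and 18669 and 14840 in those of clone T, its highest, with a median of 9622 over clones. Rps12 ranged over 1.69, with 1143 in clone G and 3839 in clone P. Rps4x, an X-linked protein of the small subunit, ranged over 1.61, with 7954 in clone J and 24475 in clone S. Rps27l, a paralog of Rps27 known as a p53 target, ranged over 1.60, with 752 in clone O and 2425 in clone T. Clone G was the lowest of the 23 clones for 24 of 76 members.

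In the large subunit, Rpl39, a small protein at the exit tunnel, ranged over 1.77, with 2549 normalized counts in clone J and 8875 in clone S. Rpl13 ranged over 1.53, with 2364 in clone G and 7025 in clone T, and Rpl14 over 1.52, with 7193 in clone G and 20949 in clone Q. On the deposited log2 scale, the narrowest ranges were 0.67 for Rpl7a, 0.72 for Rps18 and 0.73 each for Rps27 and Rps23. That variance-stabilised scale compresses differences at low counts, as for Rps27, with 19.6 normalized counts in clone S and 58.7 in clone L. Rps23 had 3304 in clone O and 5515 in clone V. In normalized counts, the range of Rps27 was therefore wider in proportion than that of Rps23. The stalk proteins Rplp0 and Rplp2, which recruit elongation factors, ranged from 11129 to 19600 and from 3429 to 6188 normalized counts over clones.

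Members called in single clones fell on either side of the other 22. In clone T, 33 of 76 members were higher and 0 lower, or 43.4% higher, while 15.7% of all genes were higher and 15.3% lower. In clone U 34 members were higher and 0 lower, while 20.3% of all genes were higher and 24.1% lower. In clone V 31 members were higher and 0 lower, while 15.2% of all genes were higher and 19% lower. In clone G 34 members were lower and 2 higher, or 44.7% lower, while 28.2% of all genes were lower and 29.3% higher. In clone O 30 members were lower and 1 higher, while 22.5% of all genes were lower and 25.5% higher. In clone N 24 members were lower and 0 higher, while 16.7% of all genes were lower and 19.7% higher. In clone E, 0 were called in either direction (limma, adjusted p under 0.05), against 14.4% of all genes higher and 10.8% lower. Clone S had 22 members higher and 12 lower, against 26.4% and 28% of all genes, and clone J had 9 higher and 15 lower, against 27% and 29% of all genes. Summed over the 23 clones, 202 calls were higher and 204 lower, and with the short-minus-long difference of each library as a covariate 332 were higher and 310 lower. Of all genes, 10.3% (clone K) to 29.3% (clone G) were higher in a single clone and 10.8% (clone E) to 29% (clone J) lower. The share of all genes was not computed for the sums or with the covariate.

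**Figure D3:**
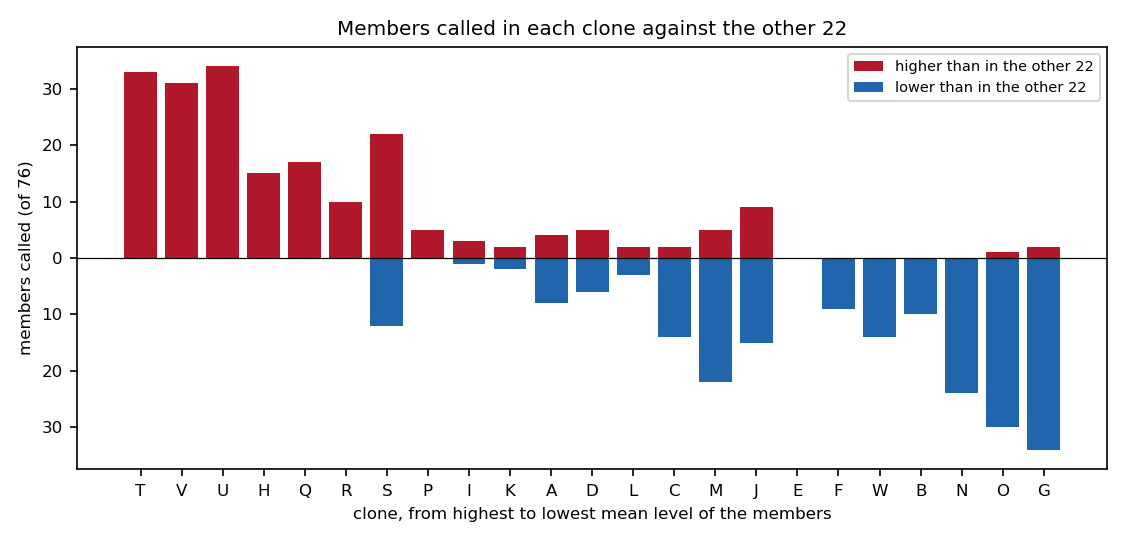
Number of the 76 tested members higher (up) or lower (down) in each clone than in the other 22 (limma, adjusted p under 0.05), with clones from the highest to the lowest mean level. T, U and V have 33, 34 and 31 members higher, and G, O and N have 34, 30 and 24 lower.

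Over 23 clones the levels of members were positively correlated. The median pairwise r of the 2850 pairs was 0.42, and 95.4% of pairs had r above 0, against median pairwise r of 0.24 among mitochondrial ribosomal proteins, 0.33 among translation factors and 0.62 among ribosome biogenesis genes. The shared mean of the members held 39.3% of their between-clone variance. The points are clone means and share libraries, and the pairwise r of A minus B was 0.66, so co-movement within and between clones cannot be fully told apart.

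Where members parted from the shared mean, members on the same chromosome often parted together. In clone J all 4 X-linked members were lower than in the other clones. Rpl39 had 2637 and 2461 normalized counts in clone J, against a median of 5491 over clones, a difference of -1.16 (SE 0.19) from the other 22 clones (adjusted p = 3.15e-06). Rps4x fell by 1.10 (SE 0.13), Rpl36a by 0.92 and Rpl10, a protein of the peptidyl transferase center, by 0.84, with adjusted p of at most 5.23e-07. The 397 other X-linked genes had their lowest median deviation of all clones in clone J, -0.49. In the same clone, Rpl21, Rpl9 and Rpl5, on chromosome 5, were above their mean over clones by 0.74, 0.67 and 0.46, and the 807 other genes of chromosome 5 were highest there, at 0.30.

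In clone S, Rps6, the small-subunit protein phosphorylated downstream of mTOR, had 3137 and 3291 normalized counts, against a median of 5370 over clones, and was lower than in the other 22 clones by a log2 difference of -0.69 (SE 0.09, adjusted p = 1.2e-07). Rpl22 differed by -0.66, and both lie on chromosome 4, whose 772 other genes had a median deviation of -0.47, the lowest of the 23 clones. In clone G, Rpl13, on chromosome 8, differed from the other 22 clones by -0.92 (SE 0.16, adjusted p = 1.3e-05). The 683 other genes of chromosome 8 were at -0.55 there, again the lowest of the clones. In the same clone Rpl24 on chromosome 16 and Rpl17 on chromosome 18 were higher, by 0.45 and 0.53, and the other genes of those chromosomes were at 0.40 and 0.35, their highest.

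**Figure D4:**
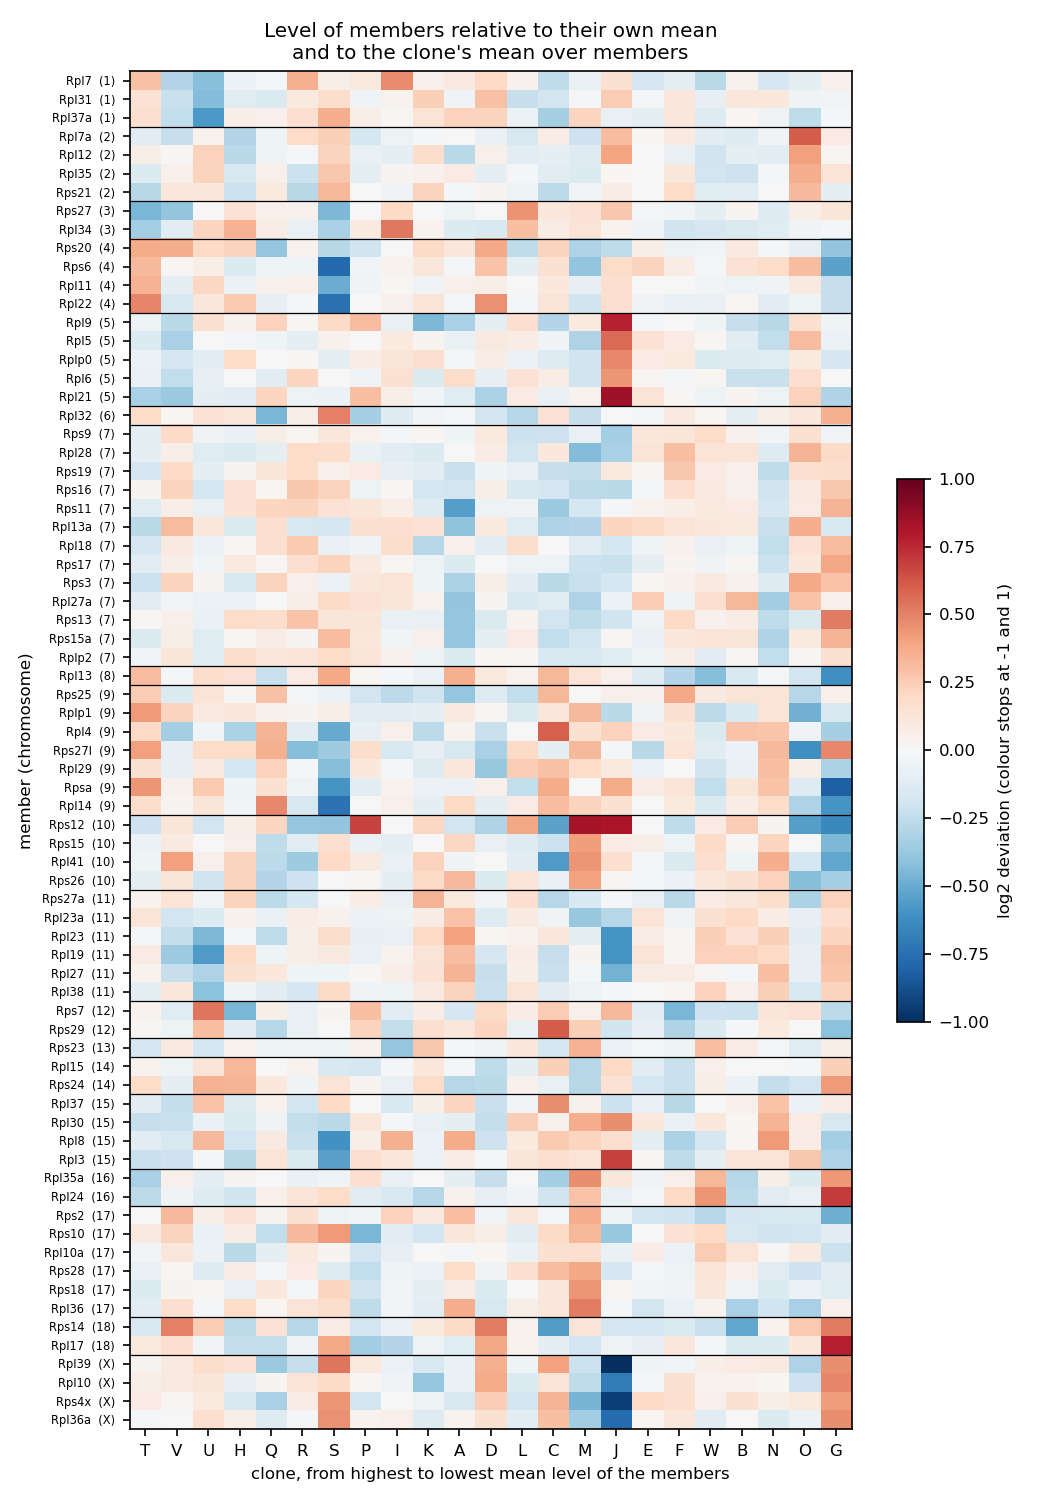
Level of 73 of the 76 tested members (rows, by chromosome) in the 23 clones (columns, from highest to lowest mean), as log2 deviation from the member's own mean and from the clone's mean over members. Blocks of 1 colour run along chromosomes, as for X in clone J and 4 in clone S.

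Over all members and clones, the 60 largest departures from the shared mean had neighbours, the other tested genes within 10 Mb, that deviated to the same side in 59 and by over 0.1 in 54. Among the exceptions, Rpl3 in clone J departed by 0.68 with its neighbours at 0.03, Rps12 in clone P by 0.68 with its neighbours at 0.01, and Rps14 in clone C by -0.56 with its neighbours at 0.03. With the shared mean subtracted, the level of a member over 23 clones correlated with the median of these neighbours with a median r of 0.77, from 0.26 to 0.93, and r was over 0.5 for 70 of 76 members. With neighbours of members on other chromosomes the median r was -0.06, and 2.03% were over 0.5. The property is not particular to these genes: for plain levels, the median r with neighbours was 0.48 for members and 0.45 for 12727 other genes. DNA copy number was not measured here.

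The intravasating clones were compared with the others by their clone means, 2 against 21, so a lack of calls would not show that the classes are alike. Of 76 members, 0 were called by limma (adjusted p under 0.05), 0 had an unadjusted p under 0.05, and 0% of 13637 genes were called, with 109 at an unadjusted p under 0.05. The median difference of members was 0.10 and 65 were positive. Clone E and clone T were on opposite sides of the members' mean, as the highest of the 23 clones (T) and the 7th lowest (E). Rps6 had the highest difference, 0.41 (SE 0.22), and Rpsa 0.40 (SE 0.26). The level of Rps6 was 5343 and 5480 normalized counts in clone E and 7695 and 8464 in clone T, against 2888, 5324 and 6441 as the lowest, median and highest mean of the other 21 clones.

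Between the 2 intravasating clones, 27 of 76 members were lower in clone E than in clone T and 0 were higher, or 35.5% lower against 13.4% of all genes (and 0% higher against 15.3%). All 76 differences were negative, with a median of -0.44, against 0.01 for all genes. Both libraries of E were below both of T for 66 of 76 members, a count that was not made for all genes. The same held for all 27 called, which the call itself makes likely. Of the small subunit 10 of 31 and of the large subunit 17 of 45 were lower. Ribosome biogenesis genes went the same way, with 33 of 81 lower and 2 higher, and of 76 mitochondrial ribosomal proteins 16 were lower and 2 higher.

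Rps27l had 1096 and 992 normalized counts in clone E and 2728 and 2122 in clone T, a difference of -1.16 (SE 0.23, adjusted p = 0.000195). Rpl22, a large-subunit protein that is dispensable for general translation, had 5821 and 6124 in clone E and 13694 and 10451 in clone T, a difference of -0.995 (SE 0.17, adjusted p = 3.32e-05). Its paralog Rpl22l1 had 690 and 654 in clone E and 607 and 395 in clone T, a difference of 0.41 (SE 0.23) that was not called (adjusted p = 0.20), and the levels of Rpl22 and Rpl22l1 had r = -0.44 over 23 clones. Rplp1 had 9659 and 9666 in clone E and 25008 and 13737 in clone T, a difference of -0.94 (SE 0.30, adjusted p = 0.018). Rpl7, Rpl13 and Rpsa differed by -0.93, -0.91 and -0.84.

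Rpl11 had 2317 and 2401 normalized counts in clone E and 4908 and 3631 in clone T, a difference of -0.82 (SE 0.18, adjusted p = 0.000904). Rps27a, which is made as a fusion with ubiquitin, was lower by 0.58 on the log2 scale (adjusted p = 0.019). Rpl5, Rps14, Rps19, Rpl3, Rplp0, Rplp2, Rpl38 and Rpl41 had lower means in clone E, and none of them was called. Outside the members, Fau was at -0.13 and was not called. The neighbours of Rpl22 within 10 Mb differed by -0.24 between E and T, those of Rps27l by -0.09 and those of Rpsa by -0.08.

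The count depended on the libraries of clone T. Without library T A, 9 members were lower in clone E and 0 higher, and without library T B 39 were lower. The A minus B of members was 0.35 in clone T and -0.01 in clone E, and that of short minus long transcripts 0.22 in clone T and -0.05 in clone E. With that length difference as a covariate, 26 members were lower and 0 higher. The share of all genes called was not computed for these refits.

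**Figure D5:**
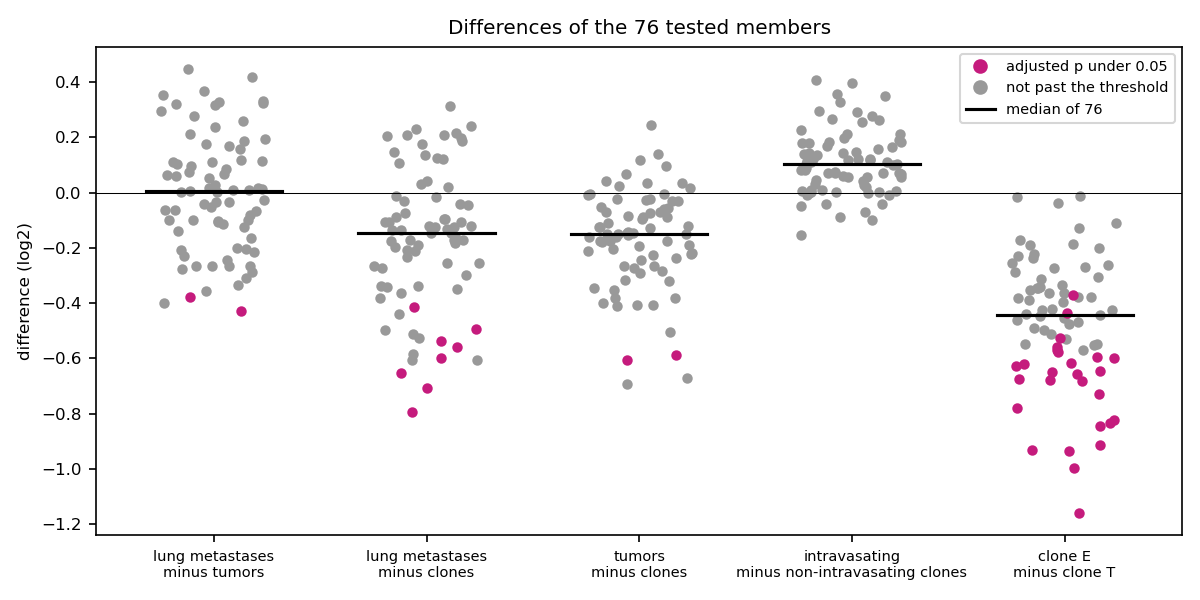
Log2 difference of each of the 76 tested members in 5 comparisons, with members past the threshold (limma, adjusted p under 0.05) in colour and the median as a bar. All members lie below 0 in clone E minus clone T, and 0, 2, 8 and 2 are called in the comparisons of intravasating clones, tumors with clones, lung metastases with clones and lung metastases with tumors.

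In lung metastases, 8 of 76 members were lower than in the clones and 0 higher, or 10.5% lower against 6.34% of all genes (12.4% of all genes were higher). The median difference of members was -0.15, against 0.06 for all genes. Rps14 had 1902 and 1490 normalized counts in Lung_1 and 1126 and 2528 in Lung_2, against 1841, 3018 and 5153 as the lowest, median and highest of the clones, a difference of -0.79 (SE 0.24, adjusted p = 0.023). Rps3, a protein at the mRNA entry site, had 6823 and 8703 in Lung_1 and 6177 and 9889 in Lung_2, against 10017, 12870 and 17979 in the clones, a difference of -0.71 (SE 0.18, adjusted p = 0.00625). Both lung metastases were below the lowest clone for Rps3. Rpl5, which carries the 5S rRNA, had 5702 and 5992 in Lung_1 and 5817 and 7348 in Lung_2, against 7104, 10113 and 13464 in the clones, a difference of -0.65 (SE 0.17, adjusted p = 0.00617).

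Rpl3, Rps21, Rpl35a, Rps9 and Rpl30 were the other members called, with differences of -0.60, -0.56, -0.54, -0.50 and -0.42. Beside them, 28 of 81 ribosome biogenesis genes, 12 of 31 translation factors and 18 of 76 mitochondrial ribosomal protein genes were lower in lung metastases and 0 in each list were higher. Median differences were -0.57 for biogenesis genes and -0.51 for translation factors. Fau, Rpl36al and Rpl7l1, outside the members, were lower as well, by 0.60, 0.61 and 0.53 on the log2 scale. Under scaling to the library total without Rn45s, the medians were -0.01 for members and 0.19 for all genes, with 4 members lower and 1 higher.

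In the tumors, Rpl3 and Rpl5 were lower than in the clones and 0 members were higher, or 2.63% lower against 1.75% of all genes (5.71% of all genes were higher). Rpl5 had 6416 and 8597 normalized counts in Tumor_1 and 7982 and 3953 in Tumor_2, a difference of -0.59 (SE 0.17, adjusted p = 0.027). Rpl3, the large-subunit protein near the peptidyl transferase center, had 2231 and 2434 in Tumor_1 and 2508 and 1932 in Tumor_2, against 2305, 3541 and 5230 in the clones, a difference of -0.61 (SE 0.18, adjusted p = 0.036). The median difference of members was -0.15, against 0.05 for all genes. Under scaling to the library total without Rn45s, the medians were -0.035 for members and 0.14 for all genes, and under upper quartile scaling -0.07 and 0.11, with 0 members called under either. Of ribosome biogenesis genes 3 of 81 were lower, and of translation factors 4 of 31, and 0 in either list were higher.

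Between lung metastases and tumors, Rps12 and Rpl35a were lower and 0 members were higher, 2.63% against 14.8% of all genes lower (16.6% higher). Rps12 had 1592 and 1477 normalized counts in Lung_1 and 1133 and 1599 in Lung_2, and 1564 and 2325 in Tumor_1 and 2616 and 1541 in Tumor_2, a difference of -0.43 (SE 0.11, adjusted p = 0.021). Rpl35a differed by -0.38 (SE 0.11, adjusted p = 0.033). The libraries of the 2 classes overlap for both genes. The median difference of members was 0.01, while 61 of 81 ribosome biogenesis genes were lower and 1 higher, with a median of -0.56, and of 76 mitochondrial ribosomal proteins 16 were lower and 1 higher. In the same comparison 5 of 12 tested leukocyte markers were higher and 0 lower, 1 of 9 fibroblast and endothelial markers was higher and 0 lower, and 5 of 7 mammary carcinoma epithelium markers were lower and 0 higher, and their part in these differences was not tested. The 3 comparisons share samples, since the same tumors and lung metastases are set against each other and against the same clones.

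Single libraries decided these counts. Tumor_2 B was the lowest of the 54 libraries for 57 of 76 members. Without it, 13 of 76 members were lower in lung metastases than in tumors and 0 higher, and without Tumor_1 B 13 were higher and 0 lower. With all libraries, 14.8% of all genes were lower in that comparison and 16.6% higher. The share of all genes was not computed for these refits or those below, so a shift particular to the members is not shown. In the same comparison, 5 were higher without Lung_2 A, 1 was lower without Lung_1 A and 0 were called without Tumor_2 A. Leaving out a whole specimen gave 6 lower without Lung_1, 4 higher without Lung_2 and 0 without either tumor. With 1 specimen left in a class, the spread comes from the 2 specimens of the other class alone and the lone specimen is assumed to vary like them, so these counts say little about stability. For tumors against clones, 0 were called without Tumor_2 B or without Tumor_1 A, 19 were lower without Tumor_2 A, 7 without Tumor_1 B and 1 without library A of clone S. Without either tumor as a whole, 0 were called. For lung metastases against clones, 17 were lower without Lung_2 B, 13 without Lung_1 B and 3 without Lung_2 A, and 0 were called without Lung_1 or without Lung_2. In these fits the specimen left in its class is likewise assumed to vary like the other groups. With the length difference as a covariate, 2 members were lower and 1 higher in lung metastases against clones, 0 were called in tumors against clones, and 10 were higher and 4 lower in lung metastases against tumors.

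Several markers of leukocytes, fibroblasts and endothelium were higher in the specimens than in the clones on average. The summed normalized count of 16 leukocyte markers was 1192 to 3370 in lung metastases, 628 to 1010 in tumors and 55.8 to 1470 in the clone libraries, and 9 of 14 tested markers were higher in lung metastases and 9 in tumors than in the clones. Of 12 fibroblast and endothelial markers, 9 of 9 tested were higher in lung metastases and 7 in tumors. Their summed normalized count was 1590 to 4820 in lung metastases, 666 to 878 in tumors and 120 to 1850 in the clone libraries. For fibroblast and endothelial markers the tumors lay within the range of several cultured clones. For leukocyte markers the clone range reached the tumors only through clone G, with 1467 and 1381. The highest library of any other clone had 282. These sums do not show which cells the transcripts came from. Of 9 lung epithelium markers, 3 were tested and 0 were higher in either. The summed normalized count of 8 mammary carcinoma epithelium markers, keratins and adhesion proteins of epithelial cells, was 14300 to 24900 in lung metastases, 20000 to 34800 in tumors and 14500 to 102000 in the clone libraries. Of these, 7 were tested and 0 were called in lung metastases or tumors against clones (limma, adjusted p under 0.05, with 1 and 2 at an unadjusted p under 0.05), with median differences of -1.28 and -0.24, and all 7 were negative in lung metastases. The part of host or carcinoma cells in the members' levels was not tested, and in bulk samples fewer cells of a type and less RNA per cell cannot be told apart.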

How the data were processed

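Total RNA was amplified from 100 ng with a NuGEN Ovation kit and sequenced with reads of 76 bases, per the labels' protocols. Bowtie2, HTSeq, DESeq and mm10 are named in the submitters' processing notes. Neither versions nor the strand setting is given in the sources used here. The deposited table, 23481 genes by 54 libraries, holds log2 values. Judged by the values, a variance-stabilising transformation had been applied, which puts genes with 0 reads at 5.03. The curve was inverted to normalized counts, and dividing by the value of 1 read gave whole reads (within 0.01) for 100% of values; 0 columns lacked a sample, and 27 rows with a symbol turned into a date are not named.

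Testing was limited to genes that reached 10 normalized counts in 2 or more libraries of a fit, and was done in R 4.3.3 with limma 3.58.1 on the deposited log2 values, two-sided, with a variance trend and Benjamini-Hochberg adjustment over all genes (threshold 0.05). Clones were compared over 46 libraries, except that intravasating and other clones were compared on 23 clone means; clones, tumors and lung metastases on 27 means; and lung metastases and tumors on 4. The design allowed for linear values, but these were already log2. Members and gene lists were chosen with earlier results of these data known. Genes named are the members with the largest differences past the threshold, the widest and narrowest clone ranges, the highest and lowest per length, and members with a textbook role; Rpl21, Rpl9, Rpl24, Rpl17, Rpl10, Rpl36a and Rpl37 with Rps29 were named after their values were seen. Lengths, positions and shared stretches came from GENCODE M21 on GRCm38. Alternatives were other filters, scales and scalings, the library letter as a block, each library or unit left out, and, added after the data were seen, the difference between short and long transcripts as a covariate. Normalized counts printed for a clone or specimen with no library named are means of 2 libraries. A few genes that these rules name are not reported here. The pipeline was tested on simulated data.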

Additional observations from a re-analysis of the deposited data

How the results depend on the processing

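Under the alternatives, members called among the 23 clones numbered 69 to 76, and those in clone E against clone T 24 to 38, all lower in clone E. Leaving out single libraries gave 71 to 76, 9 to 39 and, summed over the 23 clones against the others, 363 to 495 (406 as reported). It gave 0 to 0 for intravasating clones, 0 to 19 for tumors against clones, 0 to 17 for lung metastases against clones and 0 to 13 for lung metastases against tumors, specimens included. The letters A and B were not treated as pairing samples, since r of A minus B was not over 0.1 in every pair of groups. Over 351 pairs of groups the median r was 0.05, from -0.65 to 0.62, and r was over 0.1 in 110 of 253 pairs of clones. Samples can share an effect of the letter and still fail that rule, and the members' mean was higher in A in 19 of 23 clones. With the replicate block, 76 were called among clones, 38 in clone E against clone T (27 without it) and 498 over the 23 clones (406 without it). With the length covariate, 642 were called over the 23 clones, 14 in lung metastases against tumors, 3 in lung metastases against clones and 0 in tumors against clones. For lung metastases against tumors, 0 were called with no filter, with B libraries alone or with all 27 values, and 4 with library-total or upper quartile scaling. For lung metastases against clones the counts were 5 with library-total scaling, 4 with the upper quartile and 0 with B libraries. For tumors against clones they were 1 with a count of at least 50, 0 with either scaling or A libraries, and 5 with B libraries. The cause was not tested, and the share of all genes called was not computed for the alternatives. Of 2373 recomputed differences of members called, 0 turned in sign. Most of the refits for clone E against clone T left out a library of another clone, which leaves that difference unchanged. Most of those for specimens against clones left out a clone or a library of a clone. In these comparisons the share of refits that kept the sign or the call therefore says little about stability. The call was lost in 21 of 42 for lung metastases against tumors, 18 of 180 for tumors against clones, 50 of 720 for lung metastases against clones and 41 of 1431 for clone E against clone T.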
